A study of Mus musculus with 16 samples.

Results

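The solute carriers are the largest family of membrane transporters, and 171 of the 12900 RNAs measured here carry a solute carrier symbol (Slc, a family number, the letter a). Members were taken by symbol alone, and 1 row of this form, a pseudogene (Slc2a4rg-ps), was left out. By the usual location of their proteins, 80 members were assigned to the plasma membrane, 38 to the endomembranes (endosomes, lysosomes, Golgi and endoplasmic reticulum) and 34 to the mitochondrial carriers of the Slc25a family. A further 13 members had no compartment that could be given with confidence, 2 Slc25a members (Slc25a17 of peroxisomes and Slc25a46 of the mitochondrial outer membrane) were kept apart, and 4 symbols name proteins that are not transporters.

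Solute carriers move nutrients, ions, metabolites and metals across membranes, either down their gradients or coupled to sodium or protons. Plasma membrane and endomembrane carriers are made at the endoplasmic reticulum and reach their membrane through the secretory route. Mitochondrial carriers are made in the cytosol, handed to the Tom and small Tim proteins and inserted into the inner membrane, where they exchange ATP, phosphate, citrate, amino acids and cofactors with the cytosol.

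RNA was measured by RNA-Seq in NIH/3T3 mouse fibroblasts in 4 groups of 4 replicates. Both lines carried a lentiviral construct that expresses the β-globin open reading frame under doxycycline, with the UTR of β-globin itself in the control (HBB) line and the Pkp4 UTR, which directs RNA to protrusions, in the Pkp4 competing UTR (cUTR) line. All 4 groups received 1 μg/ml doxycycline for 3 days, and serum-starved cells then sat for 2 h on filters with 3.0-μm pores, with lysophosphatidic acid (LPA) below for 1 h, before being fixed (10 min, 0.3% paraformaldehyde). Protrusions (Ps), pooled from 3 filters, were collected from below the filter and cell bodies (CB), from 1 filter, from above it. Each construct was represented by 1 stable line, so the construct and the line cannot be told apart.

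Libraries held between 18660287 and 31260831 counted reads, and the median member had 243 to 702 reads in a sample. Of the 171 members, 154 had a mean log2 CPM (counts per 1000000 reads on a log2 scale, CPM) above 1. Of 8 listed fibroblast markers 7 were measured, with Col1a1 between 11.4 and 13.1 log2 CPM over all samples, and Thy1 was not analysed here. Of the 7 listed epithelial, blood and endothelial markers 4 were measured, with mean log2 CPM of 2.31 for Cd68, 2.10 for Cdh1, −0.84 for Pecam1 and −1.36 for Cdh5, while Epcam, Krt18 and Ptprc were not analysed here. Pkp4, whose UTR the construct carries, was 21.7-fold higher in CB and 10.0-fold higher in Ps of the Pkp4 cUTR line than of the HBB line (n = 4 each, adjusted p = 7.41e-11 and 5.84e-09 from limma). Of 5 listed nuclear RNAs 3 were measured, while Meg3 and Snhg11 were not analysed here. In the HBB line Malat1 and Neat1 were less abundant in Ps, with log2(FC) of −1.85 and −1.48. For Kcnq1ot1 the log2(FC) was −0.55 (adjusted p = 0.161 from limma).

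The first comparison asked which solute carrier mRNAs were enriched or depleted in protrusions of control cells. In the HBB line 105 of 171 members were lower and 16 were higher in Ps than in CB when limma's p-values, adjusted by the Benjamini-Hochberg method, were held to 0.05, while 28.9% of all 12900 RNAs were lower and 28.3% higher. The median log2(FC) (Ps over CB) was −0.52 over the members and 0.01 over all RNAs. Of the 80 plasma membrane members 57 were lower and 0 higher, with a median log2(FC) of −0.66. Of the 38 endomembrane members 27 were lower and 3 higher, with a median of −0.57. Of the 34 mitochondrial carriers 10 were lower and 10 higher (29.4% each), with a median of 0.01. These shares and this median were near those of all RNAs. The fibroblast markers moved with the depleted classes, with 6 of 7 lower and 1 higher (median −1.25), among them Col1a1 (−1.26), Fn1 (−1.25) and Pdgfrb (−1.08), and Vim was higher (0.55). Their part in the values of the members was not tested.

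**Figure D1:**
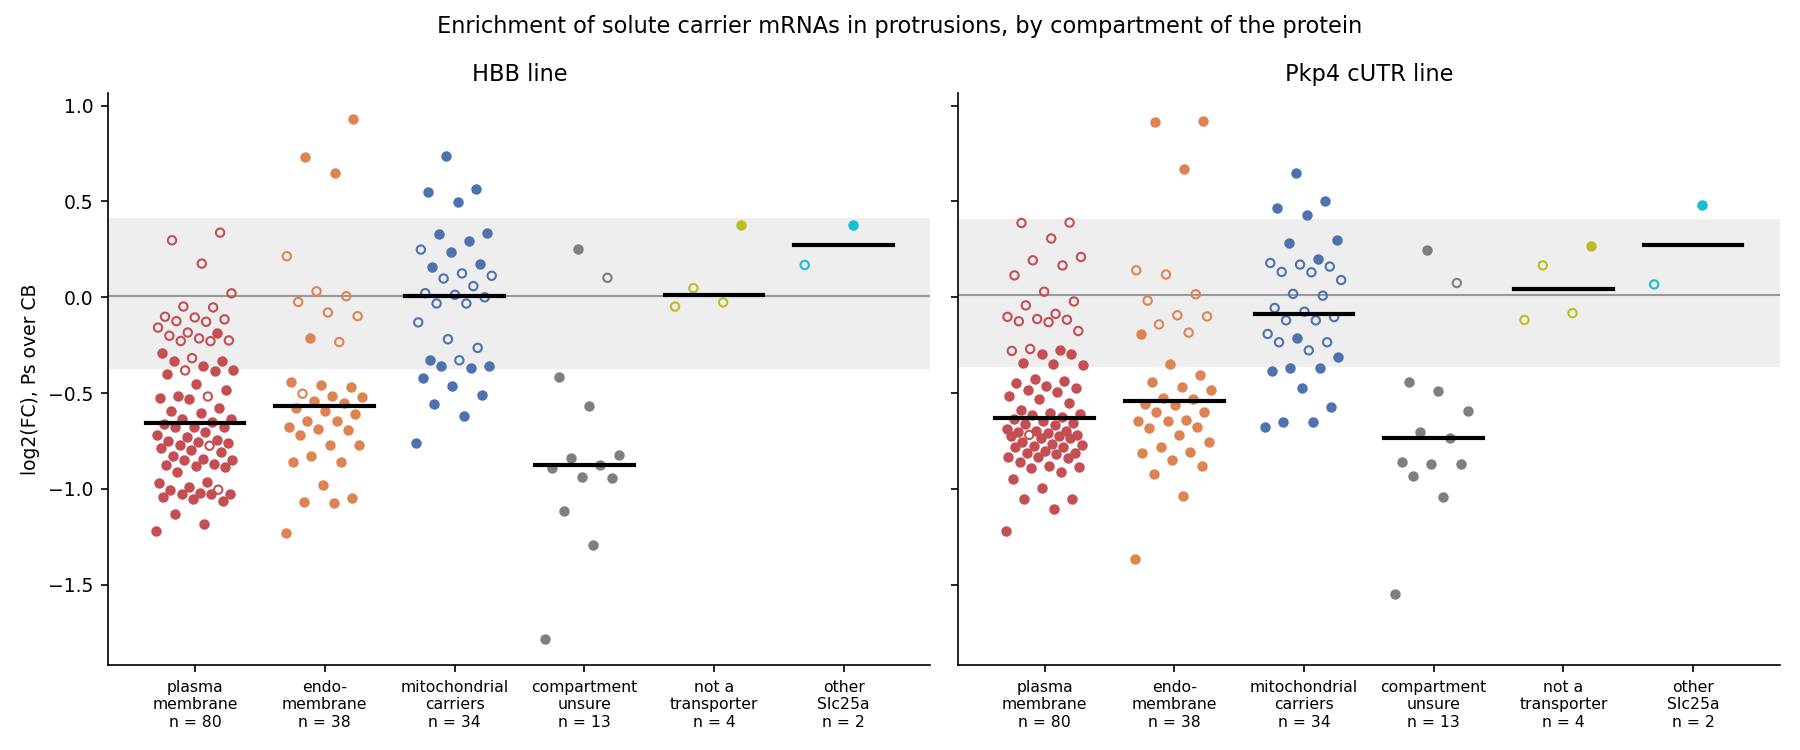
Log2(FC) of Ps over CB for each of the 171 members in the HBB line (left) and the Pkp4 cUTR line (right), grouped by the compartment of the protein. Filled points passed an adjusted p under 0.05, open points did not, black bars are medians, and the grey line and band are the median and quartiles of all 12900 RNAs. Plasma membrane members sit around a median of −0.66 in the HBB line and no filled point lies above 0, whereas filled points of the mitochondrial carriers lie on both sides of 0.

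The 4 Ps samples and the 4 CB samples did not overlap, with Ps lower, for 103 members and, with Ps higher, for 14, against 26.8% and 25.5% of all RNAs. Under the fold rule of the study (fold above 2 and unadjusted p under 0.05), 0 members were enriched in Ps and 19 were depleted, beside 4.54% and 4.0% of all RNAs. These 19 comprised 12 plasma membrane members, 4 endomembrane members and 3 of unsure compartment. As each value is a share of its library in a bulk extract, fewer protrusions holding an RNA and fewer copies per protrusion cannot be told apart.

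Amino acid transporters were lower in Ps as a group, with 17 of 22 lower and 0 higher (median log2(FC) −0.69). Slc3a2 (chr19:8706882-8723369, minus strand, GRCm38) encodes the heavy chain that carries several amino acid exchangers to the cell surface. Its log2 CPM was 9.21, 9.12, 9.26 and 9.21 in the HBB CB samples and 8.42, 8.36, 8.30 and 8.40 in the HBB Ps samples. Every Ps sample lay below every CB sample, and the log2(FC) of −0.83 (SE 0.06) had an adjusted p of 1.38e-08 from limma. Slc7a5, the large neutral amino acid exchanger that pairs with Slc3a2, ranged from 7.77 to 7.92 log2 CPM in HBB CB and from 7.09 to 7.33 in HBB Ps, a log2(FC) of −0.63 (SE 0.10).

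The glutamine importer Slc1a5 (chr7:16781340-16798274, plus strand) had 8.18, 8.11, 8.21 and 8.16 log2 CPM in HBB CB and 7.42, 7.46, 7.16 and 7.43 in HBB Ps. Its groups did not overlap, the third Ps sample being the lowest, and the log2(FC) was −0.80 (SE 0.08, adjusted p = 1.34e-07 from limma). Its relative Slc1a4, a neutral amino acid exchanger, had the lowest log2(FC) of the amino acid transporters, with 7.15 to 7.25 log2 CPM in CB against 5.93 to 6.30 in Ps and a log2(FC) of −1.05. Slc38a2, a sodium-coupled neutral amino acid importer, had a log2(FC) of −0.68, the cationic amino acid transporter Slc7a2 one of −0.66 and the neutral amino acid transporter Slc43a2 one of −0.68. The cystine-glutamate exchanger Slc7a11, at a mean log2 CPM of 0.03, did not pass the test (log2(FC) −0.16, SE 0.29).

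Carriers of sugars, lactate and nucleosides followed the same direction. Slc2a1, the main glucose importer of fibroblasts, had 8.44, 8.37, 8.12 and 8.06 log2 CPM in HBB CB and 7.59, 7.56, 7.02 and 7.27 in HBB Ps. The samples spread by more than those of Slc3a2, yet the groups did not overlap, and the log2(FC) was −0.88 (SE 0.14, adjusted p = 2.49e-05 from limma). Of 8 sugar transporters 7 were lower and 0 higher. All 4 measured members of the Slc16a family were lower, among them Slc16a1, which carries lactate and pyruvate together with protons (log2(FC) −0.70, SE 0.13). Another lactate carrier, Slc16a3, was not analysed here.

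All 3 nucleoside transporters were lower in HBB Ps. Slc29a1, the equilibrative nucleoside transporter (chr17:45585200-45599606, minus strand), had 9.23, 9.22, 9.30 and 9.32 log2 CPM in CB and 8.58, 8.50, 8.38 and 8.55 in Ps. The difference of −0.77 (SE 0.06, adjusted p = 1.83e-08 from limma) was several times the spread within either group. Slc29a2, a second equilibrative transporter at a lower level, had a log2(FC) of −1.06, and Slc29a3, which works in lysosomes, one of −0.98.

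Among the ion transporters that set pH and volume, all 5 sodium-proton exchangers were lower in HBB Ps (median log2(FC) −1.01). Slc9a5 of the cell surface had a log2(FC) of −1.03 and Slc9a8 of the Golgi and endosomes one of −1.07 in the HBB line. Slc9a8 ranged from 6.20 to 6.34 log2 CPM in CB and from 5.01 to 5.35 in Ps, without overlap.

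Of 8 bicarbonate and anion transporters 6 were lower, with a median log2(FC) of −0.92, the lowest of the named ones being Slc4a11 at −1.18. Cation-chloride cotransporters differed among themselves. The potassium-chloride exporter Slc12a7 ranged from 3.51 to 3.95 log2 CPM in CB and from 2.58 to 2.71 in Ps (log2(FC) −1.13, SE 0.13), but for the sodium-potassium-chloride importer Slc12a2 the groups overlapped and the log2(FC) was −0.05 (SE 0.10, adjusted p = 0.7 from limma), which became −0.29 (adjusted p = 0.0451) with scaling to total reads. The phosphate importer Slc20a1, also the receptor of some retroviruses, showed a smaller difference of −0.33 (SE 0.08).

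The plasma membrane member with the lowest log2(FC) was Slc23a2, a sodium-coupled vitamin C importer (chr2:132052496-132145108, minus strand). It had 6.85, 6.94, 6.91 and 6.57 log2 CPM in HBB CB and 5.56, 5.74, 5.42 and 5.68 in HBB Ps, with no overlap. The log2(FC) of −1.22 (SE 0.14, adjusted p = 1.28e-06 from limma) corresponds to 0.43 times the CB level. Slc5a6, which imports biotin and pantothenate, had a log2(FC) of −1.03.

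The 23 plasma membrane members that did not pass the test in the HBB line all had a mean log2 CPM under 5, and 9 of them were at or below 1. Of these 23 members 19 had a log2(FC) below 0. Above a mean log2 CPM of 5, all 30 plasma membrane members were lower in Ps, in both lines (share of all RNAs above that level not counted). In the HBB line the highest log2(FC) of any plasma membrane member was 0.34, and it did not pass the test.

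Zinc transporters were divided, with 4 of 18 higher and 12 lower in HBB Ps. Zrt- and Irt-like proteins (Slc39a) bring zinc into the cytosol, and zinc transporters of the Slc30a family take it out, to vesicles or across the plasma membrane. Of 10 Slc39a members 8 were lower in HBB Ps and 0 higher, the lowest being Slc39a7 of the endoplasmic reticulum. Slc39a7 had 4.28, 4.09, 4.35 and 3.59 log2 CPM in CB and 2.88, 2.97, 2.96 and 2.67 in Ps, so that even the low last CB sample lay above all Ps samples (log2(FC) −1.23, SE 0.20). Slc39a14, a zinc and iron importer of the surface, had a log2(FC) of −1.04.

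Of 8 Slc30a members 4 were lower and 4 higher in HBB Ps. Those lower were Slc30a1, the zinc exporter of the plasma membrane (log2(FC) −0.65), and Slc30a5, Slc30a6 and Slc30a7 of the early secretory route (−0.47, −0.86 and −0.69). Slc30a4, which loads zinc into endosomes and vesicles (chr2:122681233-122702663, minus strand), had 4.10, 3.83, 3.63 and 3.55 log2 CPM in HBB CB and 4.49, 4.58, 4.19 and 4.46 in HBB Ps. All Ps samples lay above all CB samples, the first CB sample coming closest, and the log2(FC) was 0.65 (SE 0.12, adjusted p = 0.000169 from limma).

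In the Pkp4 cUTR line Slc30a4 had 3.61, 3.43, 3.41 and 3.90 log2 CPM in CB and 4.41, 4.59, 4.49 and 4.50 in Ps, again without overlap (log2(FC) 0.91, SE 0.12). It was the only endomembrane member with a mean log2 CPM above 1 that was higher in Ps in either line. Slc30a9, whose compartment was left unsure and which was named after its values were seen, was higher by 0.25 in both lines. Slc30a2 and Slc30a3, named for the same reason, rested on 10 to 27 reads in each sample. For Slc30a2 the HBB samples overlapped (log2(FC) 0.73, SE 0.28). In the Pkp4 cUTR line its Ps samples all lay above its CB samples (log2(FC) 0.92, past the test). For Slc30a3 the log2(FC) was 0.93 in the HBB line and 0.14, not past the test, in the Pkp4 cUTR line.

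**Figure D2:**
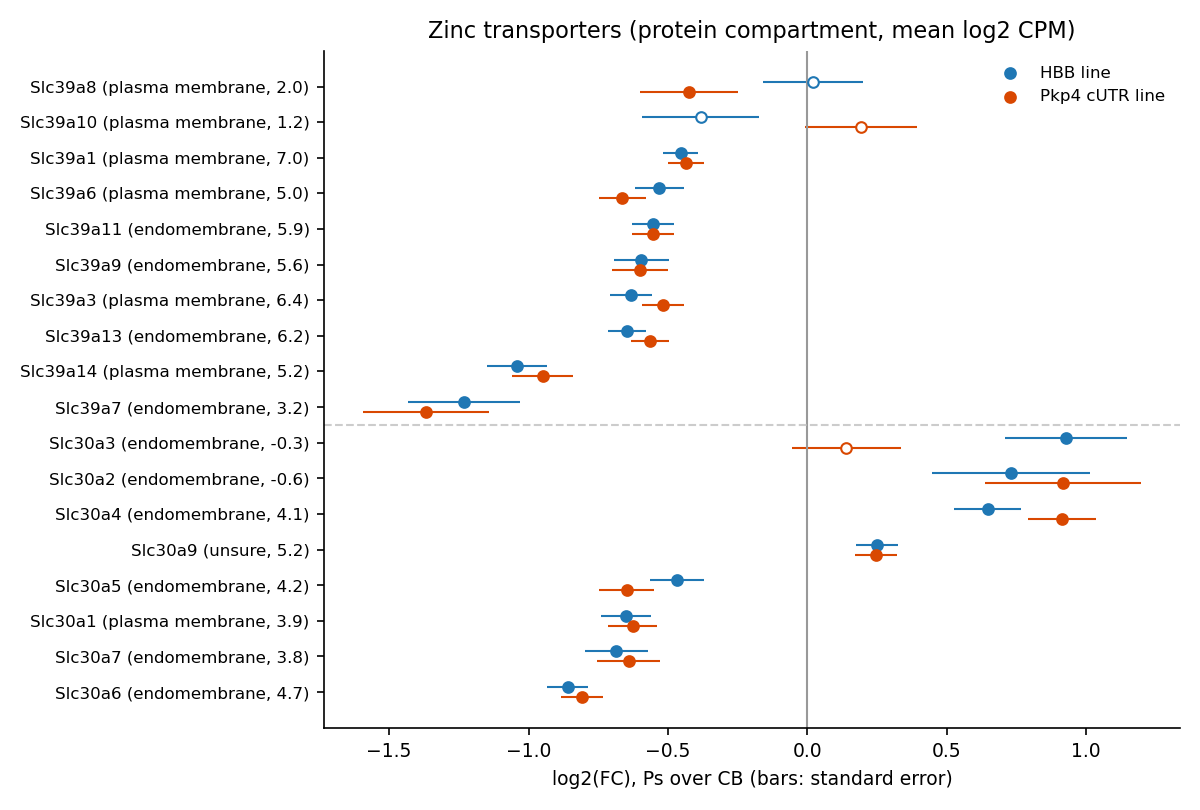
Log2(FC) of Ps over CB (horizontal axis, bars are standard errors) for the 18 zinc transporters in the HBB line (blue) and the Pkp4 cUTR line (orange), with the Slc30a family below the dashed line and the Slc39a family above it. Filled points passed an adjusted p under 0.05 and the brackets give the protein compartment and the mean log2 CPM. Slc30a4 lies at 0.65 and 0.91, while Slc39a7 lies at −1.23 and −1.37.

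Among the other endomembrane members depletion prevailed. Slc37a2, a sugar phosphate exchanger of the endoplasmic reticulum, had a log2(FC) of −1.07 in the HBB line, and all 3 measured Slc37a members were lower. The nucleotide sugar transporters of the Golgi were mixed, with 2 of 5 lower, 0 higher and a median of −0.02.

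Of the 5 members with the highest log2(FC) in the HBB line among those with a mean log2 CPM above 1, 4 were mitochondrial carriers and the other was Slc30a4. The highest, the ADP-ATP carrier Slc25a4 (chr8:46206797-46211284, minus strand), ranged from 7.98 to 8.03 log2 CPM in the 4 HBB CB samples and had 8.73, 8.73, 8.83 and 8.66 in HBB Ps. The groups were far apart relative to their spread, and the log2(FC) of 0.74 (SE 0.08, adjusted p = 5.76e-07 from limma) corresponds to 1.67 times the CB level. The second ADP-ATP carrier, Slc25a5 (chrX:36795651-36798807, plus strand), had 7.73, 7.78, 7.89 and 8.02 log2 CPM in CB and 8.27, 8.27, 8.65 and 8.49 in Ps (log2(FC) 0.56, SE 0.10). Its groups did not overlap either.

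The phosphate carrier Slc25a3 (chr10:91116574-91124059, minus strand), which supplies phosphate for ATP synthesis, had 9.99, 9.99, 9.91 and 10.11 log2 CPM in HBB CB and 10.58, 10.44, 10.71 and 10.47 in HBB Ps. Its Ps samples were all higher, with a log2(FC) of 0.55 (SE 0.08, adjusted p = 1.17e-05 from limma). Slc25a39, which imports glutathione into mitochondria, ranged from 9.04 to 9.21 in CB and from 9.41 to 9.75 in Ps (log2(FC) 0.50, SE 0.08).

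Smaller differences were measured for the citrate carrier Slc25a1 (log2(FC) 0.24, adjusted p = 0.0163 from limma) and the oxoglutarate carrier Slc25a11 (0.17, adjusted p = 0.0285). The carnitine carrier Slc25a20 was not analysed here. Slc25a14, a carrier related to the uncoupling proteins, had a log2(FC) of 0.33 that passed only just (adjusted p = 0.0343 from limma). Without the first HBB Ps sample all 3 calls were lost, at an adjusted p from limma of 0.0545 for Slc25a1, 0.0699 for Slc25a11 and 0.109 for Slc25a14. The Slc25a11 call was also lost without HBB Ps 3, HBB CB 1 or HBB CB 2 (up to 0.0941), and the Slc25a14 call without HBB Ps 4, HBB CB 1 or HBB CB 3 (up to 0.122). With scaling to total reads none of the 3 was called, and the Slc25a11 call was lost with a replicate block within the line (adjusted p = 0.0580 from limma) and the Slc25a14 call with quantile normalization (0.0590).

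The 10 mitochondrial carriers that were lower in HBB Ps had mean log2 CPM between 1.94 and 5.25. Slc25a37, mitoferrin 1, which imports iron, had 4.98, 4.99, 5.22 and 4.96 log2 CPM in CB and 4.17, 4.33, 4.21 and 4.40 in Ps (log2(FC) −0.76, SE 0.10, adjusted p = 5.13e-06 from limma). The groups did not overlap, and the paralogous iron importer Slc25a28 was lower too (log2(FC) −0.32). Slc25a42, a carrier of coenzyme A, had a log2(FC) of −0.62, and Slc25a29, a carrier of basic amino acids, one of −0.56. Slc25a44, which carries branched-chain amino acids, followed at −0.51 and Slc25a25, an ATP-Mg and phosphate carrier, at −0.46.

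**Figure D3:**
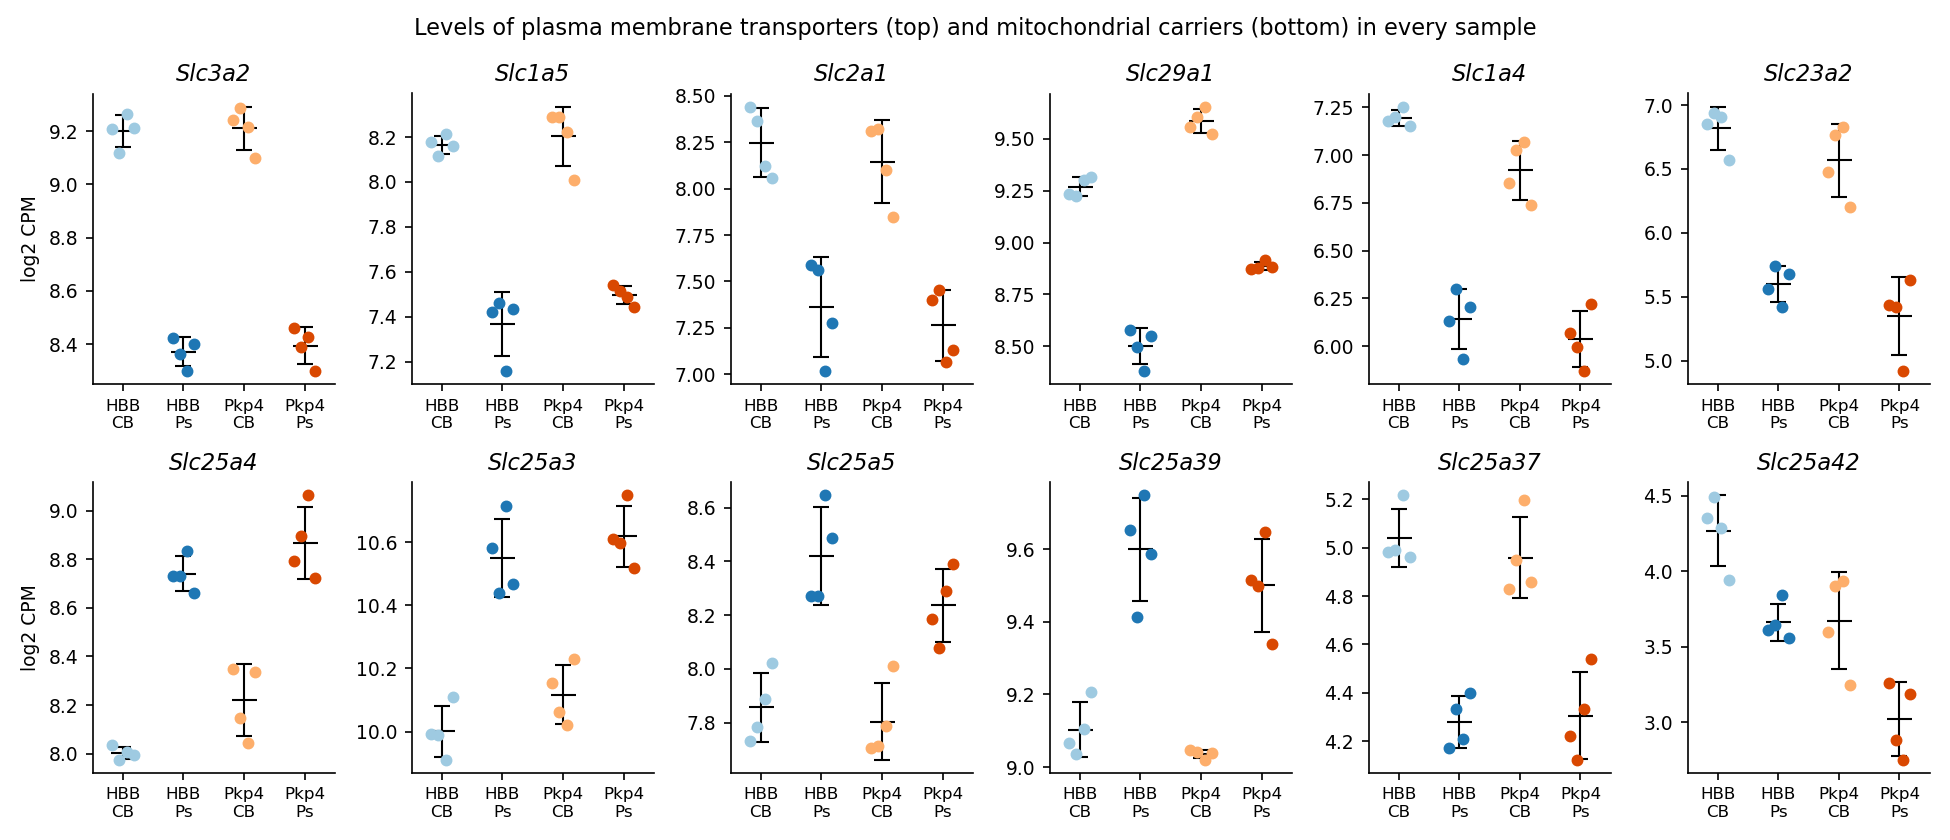
Log2 CPM of 6 plasma membrane transporters (top) and 6 mitochondrial carriers (bottom) in each of the 16 samples, by group, with the mean and SD of 4 replicates. All 6 plasma membrane transporters and Slc25a37 are lower in Ps in both lines without overlap within a line, Slc25a4, Slc25a3, Slc25a5 and Slc25a39 are higher in Ps, and for Slc25a42 the Pkp4 cUTR groups overlap slightly.

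The comparison of the plasma membrane families with the mitochondrial carriers was made over the median log2(FC) of each class, which is a description over genes and has no p. The mitochondrial median exceeded the plasma membrane median by 0.66 in the HBB line and by 0.54 in the Pkp4 cUTR line. Taken over Ps and CB samples with the same replicate number, the difference ranged from 0.50 to 0.80 in the HBB line (0.61 ± 0.13, SD, n = 4) and from 0.36 to 0.73 in the Pkp4 cUTR line (0.52 ± 0.16). All 8 values were above 0, although it is not known that the numbers pair Ps with CB samples.

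Each sample was also scored by the median of its log2 CPM minus the mean of all 16 samples. For the plasma membrane members this score was 0.23 to 0.38 in HBB CB and −0.41 to −0.21 in HBB Ps, and 0.11 to 0.39 and −0.43 to −0.28 in the Pkp4 cUTR line. For the mitochondrial carriers it stayed between −0.09 and 0.10 in all groups. The plasma membrane scores of Ps and CB did not overlap in either line and those of the mitochondrial carriers did. Replicate 4 had the lowest plasma membrane score of the CB samples in both lines (0.23 and 0.11). Without both of these samples 108 members were lower in HBB Ps and 104 in Pkp4 Ps, beside 3983 and 3971 of all 12900 RNAs. With all samples 3734 and 3679 of all RNAs were lower. The summed level of the 80 plasma membrane members was 5037 CPM in HBB CB and 3006 CPM in HBB Ps (SD 180.4 and 182.5, n = 4), and that of the 34 mitochondrial carriers was 3040 CPM and 4044 CPM (SD 106.3 and 289.5). Most of the latter difference came from Slc25a3, Slc25a39, Slc25a4 and Slc25a5, which were chosen here for their differences and summed to 2065 CPM in HBB CB and 3055 CPM in HBB Ps (SD 97.6 and 252.5), while the other 30 carriers summed to 974.9 CPM and 990.1 CPM (SD 18.3 and 38).

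The direction differed with expression level among the mitochondrial carriers. Of the 11 mitochondrial carriers above a mean log2 CPM of 5, 7 were higher and 2 lower in HBB Ps, and of the other 23, 3 were higher and 8 lower. All plasma membrane members above that level were lower. The shares of all RNAs called higher or lower on each side of that level were not counted. The share of higher calls among mitochondrial carriers also depended on the scaling of the libraries, as did that among all RNAs. Scaling to total reads put the median log2(FC) of all RNAs at −0.23 in the HBB line, with 1940 of 12900 higher and 5614 lower. Under it 4 mitochondrial carriers were higher and 15 lower. These 4 were Slc25a3, Slc25a4, Slc25a5 and Slc25a39, and of the plasma membrane members 0 were higher and 70 lower.

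Coding length differed between the classes, since mitochondrial carriers are short proteins. In the GENCODE vM21 annotation the median coding length was 951 bases for the mitochondrial carriers and 1707 bases for the plasma membrane members, and over all RNAs log2(FC) went down with coding length (Spearman's rho −0.35 over 11354 RNAs in the HBB line). Over all members rho was −0.41. Within the plasma membrane members it was 0.00, within the mitochondrial carriers 0.01 and within the endomembrane members −0.49. Under 1500 coding bases the 18 plasma membrane members had a median log2(FC) of −0.67, with 16 lower and 0 higher, while the 31 mitochondrial carriers had a median of −0.00, with 9 lower and 9 higher. All 6275 RNAs under that length had a median of 0.12, with 1417 lower and 2348 higher. The part of length in the class difference was not tested further.

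**Figure D4:**
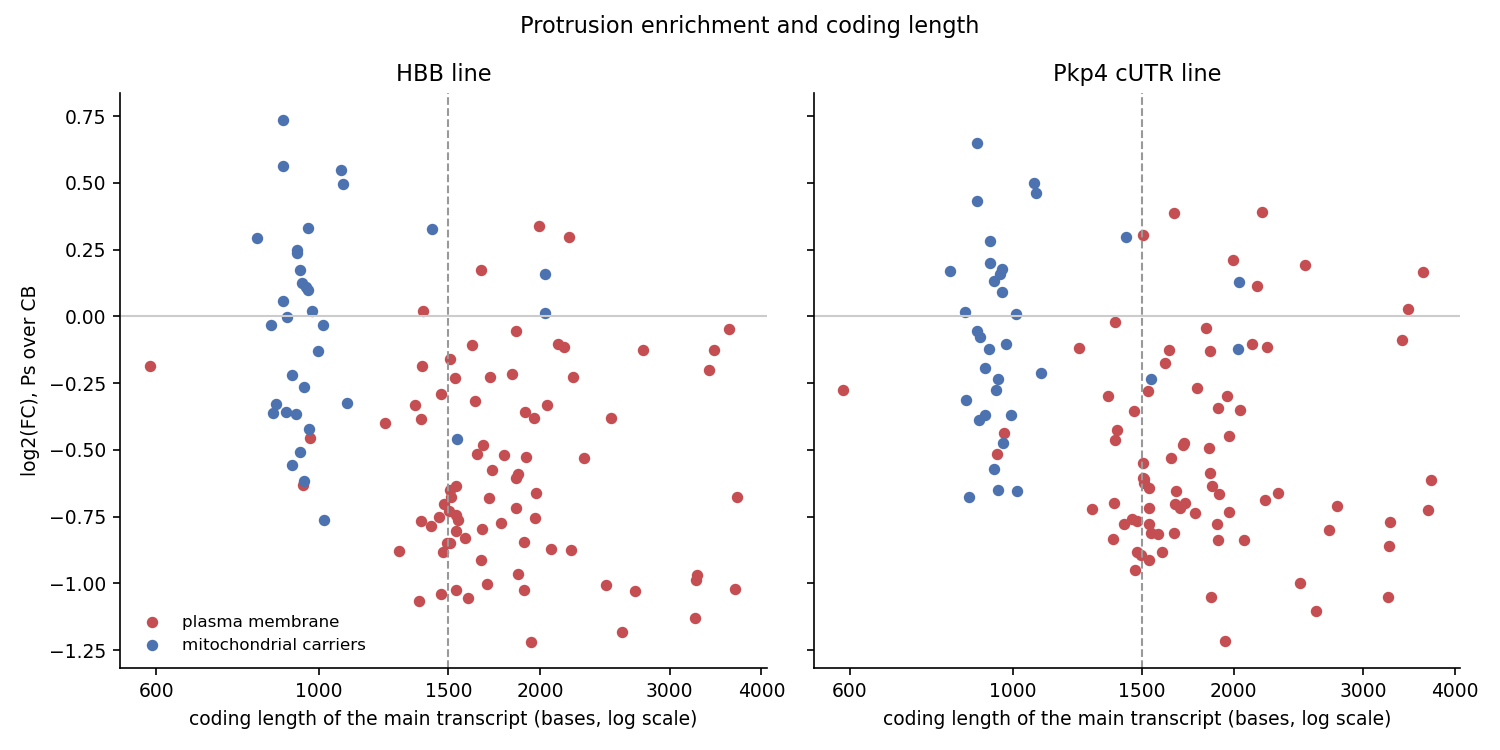
Log2(FC) of Ps over CB against the coding length of the main transcript (bases, log scale) for plasma membrane members (red) and mitochondrial carriers (blue) in the HBB line (left) and the Pkp4 cUTR line (right). The dashed line marks 1500 bases, below which the 18 plasma membrane members have a median of −0.67 in the HBB line and the 31 mitochondrial carriers one of −0.00.

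Genes that work with the carriers were read beside them from chosen lists. Of 15 measured RNAs for the import of carrier proteins into mitochondria, 11 were higher and 1 lower in HBB Ps, with a median log2(FC) of 0.61. Tomm70a, the outer membrane receptor for carriers, had a log2(FC) of 0.71 (SE 0.10), the small chaperone subunit Timm8b one of 0.89 and Tomm20 one of 0.61, but the inner membrane insertase Timm22 did not pass (0.23, adjusted p = 0.079 from limma). Of 11 RNAs for other solute passage through mitochondrial membranes, 8 were higher and 1 lower, including the pores Vdac1, Vdac2 and Vdac3 (0.30, 0.39 and 0.50) and the pyruvate carrier subunits Mpc1 and Mpc2 (0.51 and 0.91). RNAs encoded in the mitochondrial genome were higher in Ps as well, with 13 of 18 higher, 0 lower and a median of 1.19. Their part in the carrier values was not tested.

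Of 9 measured plasma membrane pumps and partners, 5 were lower and 0 higher in HBB Ps. The drug and glutathione exporter Abcc1 had a log2(FC) of −1.03 (SE 0.15). Bsg, the chaperone of Slc16a1, did not pass (−0.17, adjusted p = 0.063 from limma).

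In the Pkp4 cUTR line the same comparison gave 108 members lower and 13 higher in Ps (28.5% and 28.2% of all RNAs), with a median log2(FC) of −0.48. Of the plasma membrane members 60 were lower and 0 higher (median −0.63), of the endomembrane members 27 were lower and 3 higher (median −0.54), and of the mitochondrial carriers 10 were lower and 7 higher (median −0.09). Groups did not overlap for 95 members lower and 12 higher in Ps, beside 22.2% and 22.6% of all RNAs. Under the fold rule 8 members were depleted and 0 enriched, beside 2.92% and 5.07% of all RNAs.

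Between the lines 102 members were lower in both, which is 97.1% of those lower in the HBB line and 94.4% of those lower in the Pkp4 cUTR line. Over all RNAs these shares were 87.4% and 88.7%. For members higher in Ps, 11 were shared, 68.8% and 84.6% of the respective lists, beside 84.9% and 85.4% over all RNAs. No member, and 0 of all RNAs, were called in opposite directions. Across the 171 members, which are genes and not independent replicates, the log2(FC) values of the lines correlated with r = 0.93, and 155 members had the same sign. Over all 12900 RNAs r was 0.91, and 11704 had the same sign.

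Values for the leading members were close in both lines. In the Pkp4 cUTR line Slc3a2 had 9.24, 9.29, 9.21 and 9.10 log2 CPM in CB and 8.46, 8.39, 8.43 and 8.30 in Ps (log2(FC) −0.82). Slc25a4 had 8.35, 8.15, 8.05 and 8.34 in CB and 8.79, 8.89, 9.06 and 8.72 in Ps (log2(FC) 0.65). For both genes the Ps and CB samples were apart, in opposite directions. The log2(FC) of Slc25a3 was 0.50 in this line but 0.10 (adjusted p = 0.12 from limma) after quantile normalization, and that of Slc25a5 was 0.43 but 0.17 (adjusted p = 0.15) with scaling to total reads.

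**Figure D5:**
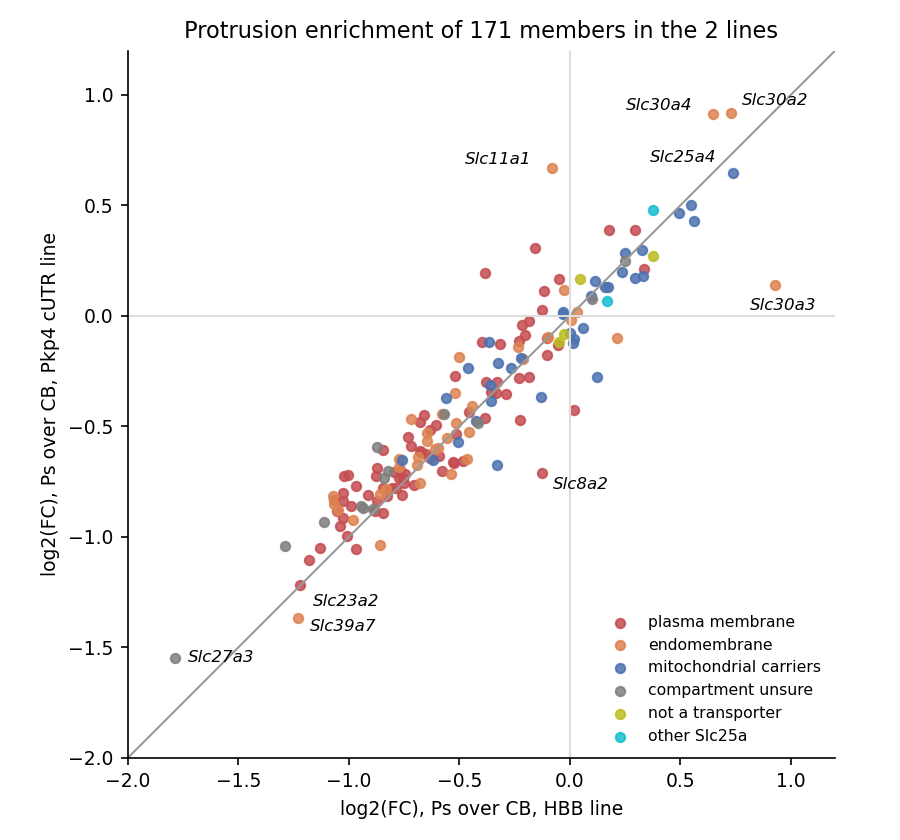
Log2(FC) of Ps over CB in the HBB line (horizontal axis) against the Pkp4 cUTR line (vertical axis) for the 171 members, coloured by the compartment of the protein, with the line of equal values. Most points lie near that line (r = 0.93, and 0.91 over all RNAs), and the labelled points Slc30a3, Slc11a1 and Slc8a2, which have mean log2 CPM under 1, lie farther from it.

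The study set up the Pkp4 cUTR line to test whether an excess of a protrusion-directed UTR changes the enrichment of other RNAs. The change was measured as log2(Diff FC), the log2(FC) of the Pkp4 cUTR line minus that of the HBB line. No member, and 0.0% of all 12900 RNAs, passed an adjusted p under 0.05 from limma. The study used other cutoffs, on log2(Diff FC) and p among RNAs enriched in Ps of the HBB line. By these it reported a subset that became less enriched in the Pkp4 cUTR line. It also reported less peripheral Ddr2 and Kank2 RNA by in situ hybridization. The count given here is not by the study's rule. At an unadjusted p under 0.05 there were 4 members (2.34%), and 2.33% of all RNAs were past it. The median log2(Diff FC) was 0.04 over the members, 0.07 over the plasma membrane members and −0.03 over the mitochondrial carriers. The median SE of log2(Diff FC) was 0.15 per member, and members with values as large as −0.79 and 0.75 were not called.

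Among members with a mean log2 CPM above 1, the 4 with the smallest unadjusted p were the CMP-sialic acid transporter Slc35a1 (log2(Diff FC) −0.31, SE 0.15), the mitochondrial folate carrier Slc25a32 (−0.40, SE 0.19) and the zinc importers Slc39a10 (0.57, SE 0.29) and Slc39a8 (−0.44). For Slc25a32 the HBB samples ranged from 2.11 to 2.39 log2 CPM in CB and from 2.04 to 2.46 in Ps, and the Pkp4 cUTR samples from 2.51 to 3.04 in CB and from 2.36 to 2.73 in Ps. Ps and CB overlapped in both lines, and the adjusted p from limma was 1.00. Among low-level members, named after their values were seen, Slc11a1, an iron and manganese transporter of phagosomes, had a log2(Diff FC) of 0.75 and Slc30a3 one of −0.79, both with an adjusted p of 1.00 from limma.

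Levels were then compared between the lines within each fraction. In CB, 7 members were higher and 19 lower in the Pkp4 cUTR line than in the HBB line, beside 3.42% and 5.55% of all RNAs. The lines did not overlap for 12 members higher and 27 lower (6.49% and 8.11% of all RNAs), and by the fold rule 0 were higher and 2 lower (0.279% and 1.26%). Slc25a10, the mitochondrial dicarboxylate carrier (chr11:120491840-120499187, plus strand), had 5.61, 5.49, 5.55 and 5.58 log2 CPM in HBB CB and 5.87, 5.94, 6.06 and 5.92 in Pkp4 CB. The lines did not overlap, and the log2(FC) between lines was 0.39 (SE 0.07, adjusted p = 0.000851 from limma). Also higher were Slc25a32 (0.56), the ornithine carrier Slc25a15 (0.32), Slc29a1 (0.32) and the zinc importer Slc39a6 (0.27).

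Members lower in Pkp4 cUTR cell bodies included Slc43a2, with 5.27, 5.19, 5.37 and 5.22 log2 CPM in HBB CB and 4.61, 4.88, 4.71 and 4.35 in Pkp4 CB. Its lines did not overlap (log2(FC) −0.62, SE 0.09, adjusted p = 0.00015 from limma). The organic ion transporter Slc22a18 (−0.83), the riboflavin transporter Slc52a3 (−0.73), Slc37a2 (−0.69) and Slc25a42 (−0.60) were lower too. Without the third HBB CB sample 4 members were higher and 10 lower (share of all RNAs not counted). Slc39a6 (adjusted p = 0.0667 from limma) and Slc52a3 (0.0606) were then no longer called. The Slc52a3 call was also lost without Pkp4 CB 4 (0.0527), and the Slc39a6 call without any 1 of the CB samples (up to 0.126) and without HBB Ps 1 or 4 or Pkp4 Ps 1, 2 or 4. It was lost, too, with an intensity trend and no weights (0.0645), with log2(CPM + 1) (0.0618), with scaling to total reads (0.136) and without replicate 4 of both CB groups (0.166).

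In Ps, 5 members (2.92%) were higher and 7 (4.09%) lower in the Pkp4 cUTR line, near the 2.89% and 4.26% of all RNAs. The lines did not overlap for 9 members higher and 16 lower (6.31% and 7.4% of all RNAs), and by the fold rule 0 were higher and 1 lower (0.372% and 1.16%). Slc29a1 had 8.58, 8.50, 8.38 and 8.55 log2 CPM in HBB Ps and 8.87, 8.88, 8.91 and 8.88 in Pkp4 Ps, the second line being higher throughout (log2(FC) 0.39, SE 0.06, adjusted p = 0.000437 from limma). Slc25a10 (0.44), Slc7a2 (0.53) and the sodium-bicarbonate exchanger Slc4a8 (0.44) were higher as well. The lower ones included the amino acid transporter relative Slc38a6 (−0.58), Slc25a42 (−0.63), Slc29a3 (−0.48), Slc43a2 (−0.42) and the monocarboxylate carrier family member Slc16a13 (−0.40).

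Same-numbered samples of the lines varied together, and with the replicate number as a block 13 members were lower in Pkp4 cUTR protrusions rather than 7. The share of all RNAs called lower with this block was not counted, so a general gain of calls cannot be told apart. The added ones included Slc37a2 (adjusted p = 0.0110 from limma), Slc22a18 (0.00878) and Slc52a3 (0.0245), and the block added Slc4a8 (adjusted p = 0.0489) to those higher in CB. Without the first HBB Ps sample, or without the third Pkp4 Ps sample, 4 members were lower in Ps. Without the latter, Slc25a42, Slc29a3 and Slc16a13 lost their calls at adjusted p = 0.102, 0.148 and 0.0541 from limma. Slc25a42 also lost its call without HBB Ps 1, 2 or 3 or Pkp4 Ps 2. Slc29a3 did so with scaling to total reads (adjusted p = 0.0644) and without any 1 of the HBB Ps samples, HBB CB 1, 2 or 3, Pkp4 Ps 1 or 2 or Pkp4 CB 1, and Slc16a13 without HBB Ps 2, 3 or 4, HBB CB 1, Pkp4 Ps 1, 2 or 4 or Pkp4 CB 1 or 2. Slc6a15, Slc25a10 and Slc29a1 were higher in the Pkp4 cUTR line in both fractions, and 7 members were lower in both. The shares of all RNAs called in both fractions, or without single libraries, were not counted.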

How the data were processed

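RNA-Seq libraries of 16 samples (stranded Illumina kit, paired reads) were processed by the authors with STAR 2.4.2a against mm10 and GENCODE release 4, Rsubread 1.20.1 and limma 3.26.1. The deposited values are log2 CPM from limma-voom for 12900 RNAs that passed a log2 CPM of 0.5 in at least 1 sample, on scaled library sizes whose scaling method, like the strand setting of the counting and the treatment of reads shared by near-identical genes, is not given in the sources used here. Whole reads were recovered for 100% of the values (within 0.01 of a whole number). Scaling factors were below 1 in every Ps and above 1 in every CB library. Fits used limma 3.58.1 (R 4.3.3) with voom weights and 1 mean for each of the 4 groups over all 16 samples, two-sided, with Benjamini-Hochberg adjustment over 12900 RNAs, and log2(FC) therefore includes the 0.5 reads that voom adds. In simulated HBB data over 12900 RNAs, 99 of 100 RNAs changed 2-fold and 8 of 100 changed 1.25-fold were found, and 6 of 12700 unchanged RNAs were called. The simulation set the same dispersion for every RNA and changed few RNAs. In the real HBB data 3655 RNAs were called higher and 3734 lower, so these rates need not hold for the fits reported here.

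All 171 members matched GENCODE vM21 (GRCm38) by symbol, which gave coordinates and lengths. Of them 8 share exon sequence with another gene on the same strand, among the named ones Slc39a7, and 37 only on the opposite strand, so their reads may be split or mixed. The members, compartments and lists were chosen with earlier results of these data known. Named genes were the 8 lowest and 8 highest plasma membrane members, the 5 mitochondrial carriers and 3 endomembrane members at each end among those past the test with mean log2 CPM above 1, the 4 smallest p for the change of enrichment, the 5 at each end of the line comparisons, and 17 chosen metabolic and mitochondrial carriers, of which 1 is not reported here. No plasma membrane member was past the test on the higher side. Other members were named to complete a family or after their values were seen.

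The labels give replicate numbers in every group, and the methods describe independent replicates without saying what a number shares. Deviations of same-numbered samples from their group means correlated at 0.33 to 0.63 between the lines in CB and at 0.20 to 0.39 in Ps, so the numbers were taken to pair the lines. Between Ps and CB of the HBB line the same numbers correlated at 0.05 to 0.39 (mean 0.18, against −0.06 for different numbers). In the Pkp4 cUTR line they correlated at −0.36 to 0.00 (mean −0.16, against 0.06). Whether the numbers pair Ps with CB in the HBB line was left unsettled, and the main fits used no pairing. The tried alternatives were limma with an intensity trend and no weights, quantile normalization, scaling to total reads, log2(CPM + 1), a filter on low values, replicate blocks, the study's fold rule and leaving out each library. Leaving out replicate 4 of both CB groups was chosen after seeing the data.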

Additional observations from a re-analysis of the deposited data

Results flagged for a closer look

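Of 220 groups of 4 samples tested, 6 had 1 sample set apart from the other 3, where chance gives about 1 in 20. In HBB CB, Slc25a37 was high in replicate 3 (5.22 log2 CPM against 4.96 to 4.99), and Slc25a15 was high in replicate 4 (3.74 against 3.55 to 3.56). In HBB Ps, replicate 3 was low for Slc25a32 (2.04, with the others up to 2.46) and for Slc1a5 (7.16 against 7.42 to 7.46). The median score over all 171 members was low in replicate 4 of HBB CB (0.19 against 0.30 to 0.32), and the plasma membrane score was low in replicate 3 of Pkp4 Ps (−0.43 against −0.30 to −0.28). Replicate 4 of HBB CB held 2 of the 6. No named member had a log2(Diff FC) past an adjusted p under 0.05 from limma, and none had Ps and CB apart in opposite directions in the 2 lines.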

How the results depend on the processing

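The class difference stayed between 0.60 and 0.69 in the HBB line and between 0.43 and 0.58 in the Pkp4 cUTR line under every alternative, and the count of changed enrichment stayed at 0. Apart from the fold rule, members lower in Ps ranged from 100 to 130 in both lines. Of all RNAs fitted, 3369 to 5614 (HBB) and 3281 to 5867 (Pkp4 cUTR) were lower. Scaling to total reads cut the members higher in Ps to 6 (HBB) and 4 (Pkp4 cUTR), and over all RNAs it turned 3655 higher and 3734 lower in the HBB line into 1940 and 5614. Under it Slc25a11 in the HBB line and Slc25a1 in the Pkp4 cUTR line came to −0.0644 and −0.0647, not past the test. With fold above 2 and unadjusted p under 0.05, 0 members were higher and 19 lower in HBB Ps, 0 and 8 in Pkp4 Ps, and between lines 0 higher and 2 lower in CB and 0 and 1 in Ps. For members lower in Pkp4 protrusions, 11 were called with an intensity trend and no weights, 12 with quantile normalization, 11 with log2(CPM + 1), 11 without replicate 4 of both CB groups and 13 with the replicate block shared by the lines. Leaving out 1 library gave 4 to 8 higher and 10 to 22 lower in CB and 4 to 10 lower in Ps between the lines. It also gave 13 to 18 members higher in HBB Ps, beside 3260 to 3779 of all RNAs. The block shared by the lines lost no call between the lines, and beside those given above it added Slc12a8 in CB and Slc38a10, Slc22a23 and Slc6a7 in Ps. For the comparisons between the lines, the shares of all RNAs called under these alternative fits were not counted. What same-numbered Ps and CB samples share is not known, and a replicate block within lines gave 14 higher and 106 lower (HBB) and 11 and 106 (Pkp4 cUTR). Over all RNAs that block gave 3582 higher and 3710 lower (HBB) and 3571 and 3641 (Pkp4 cUTR). The planned count-model alternatives were not run, since the deposited values are on a log scale. Depth limits members at 10 to 30 reads a sample.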

Other observations

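The 4 members that are not transporters did not share the depletion of the transporters. Slc9a3r1 and Slc9a3r2, scaffold proteins named for their binding to a sodium-proton exchanger, had log2(FC) of −0.05 and 0.05 in the HBB line, and Slc7a6os had −0.03. Slc4a1ap, an adaptor protein, was higher in Ps in both lines (0.38 and 0.27, past an adjusted p under 0.05 from limma), and Slc25a46 of the mitochondrial outer membrane was higher too (0.38 and 0.48).

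Of the 13 members of unsure compartment 11 were lower and 1 higher in HBB Ps, with a median log2(FC) of −0.87. They hold the lowest value of all 171 members, Slc27a3, a fatty acid transport family protein, named after its values were seen. Slc27a3 had 2.27, 2.60, 2.36 and 2.00 log2 CPM in HBB CB and 0.42, 0.67, 0.16 and 0.88 in HBB Ps (log2(FC) −1.78, SE 0.24), and its groups were far apart.

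Per kilobase of exon sequence, the levels of the leading members changed their order between the fractions. In HBB CB the highest CPM per kb were those of Slc25a39 (199.8), Slc25a3 (184.8), Slc3a2 (166.8) and Slc29a1 (154.0). In HBB Ps the 5 highest were all mitochondrial carriers, Slc25a39 (282.6), Slc25a3 (270.9), Slc25a5 (209.3), Slc25a4 (181.8) and Slc25a1 (155.2), and Slc3a2 (93.9) and Slc29a1 (90.5) ranked 7 and 8. The lengths come from a later annotation than the one used for counting.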
